A study of Arabidopsis thaliana with 2 samples.

Results

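Arabidopsis stores the carbon and energy of its seeds as triacylglycerol, and 10 genes that build and modify this oil in the endoplasmic reticulum were followed here in developing seeds. They were chosen by gene identifier: FAD2, FAD3, FAE1, ROD1, LPCAT1, LPCAT2, GPAT9, LPAT2, DGAT1 and PDAT1. All 10 were found among the 33602 gene models of both expression tables. RNA was taken from Arabidopsis thaliana seeds at 10 DAP, the age as labelled. The group called GmPSKγ1 carried the construct OLEOp:GmPSKγ1, and its control, called GmPSKγ1tc, carried OLEOp:GmPSKγ1tc. Both groups therefore carry a transgene under the promoter labelled OLEOp, and neither OLEOp nor the ending "tc" is spelled out in the labels. GmPSKγ1 is a soybean gene for a precursor of phytosulfokine, a sulfated peptide hormone. Each group is 1 library made from the pooled RNA of 3 individual lines, so every difference below is a difference between 2 libraries, with no replicate check and no test of the genotype.

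Seed oil is made by adding fatty acids, one after another, to a glycerol backbone. GPAT9 and LPAT2 encode acyltransferases of the early steps, and DGAT1 encodes the acyltransferase that completes the oil molecule from diacylglycerol and acyl-CoA. Much of the fatty acid first passes through the membrane lipid phosphatidylcholine, where FAD2 converts oleate to linoleate and FAD3 converts linoleate to alpha-linolenate. LPCAT1 and LPCAT2 encode enzymes that load acyl chains onto phosphatidylcholine and exchange them, ROD1 encodes the enzyme that swaps the headgroup between phosphatidylcholine and diacylglycerol, and PDAT1 encodes an enzyme that moves an acyl chain from a phospholipid straight to diacylglycerol. FAE1 encodes the seed enzyme that starts the elongation of oleoyl-CoA to the very-long-chain fatty acids of Arabidopsis oil.

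FAD3 stood at a lower level in the GmPSKγ1 library, 281 FPKM against 440 FPKM in the control, and was the only one of the 10 genes to differ by 1.5-fold. FPKM counts reads per kilobase of transcript, relative to a read total of the library. The other 9 genes lay closer, with log2 ratios of GmPSKγ1 over control from -0.13 to 0.18. These log2 ratios were taken after adding 1 to each FPKM value. Among the 17816 genes whose mean reached 1 FPKM, 2.68% were at least 1.5-fold lower in GmPSKγ1 and 3.13% at least 1.5-fold higher, against 1 and 0 of the 10 oil genes. Over all genes this was 478 lower and 557 higher. The split turned to 563 lower and 430 higher after rescaling by the median ratio. It was 614 and 362 when the scale left out the 50 most abundant genes. With both libraries rescaled to an equal sum it was 535 and 671. At 2-fold none of the 10 was lower, beside 0.819% of all genes counted. The median log2 ratio of the 10 was 0.02, beside 0.05 for all genes counted, so as a group they stood close to the whole transcriptome. Abundant genes stood higher, with a median of 0.14 for the 899 genes whose mean reached 100 FPKM. Of the 10, FAD2, FAD3 and FAE1 reached that level.

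Bases upstream of FAD3, FAD2 and FAE1 are shown because these 3 abundant genes stood in a different balance in the 2 libraries. Each run is the 200 bases before the annotated gene start, read 5′ to 3′ on the gene's own strand, from the reference assembly TAIR10.1 with RefSeq gene starts. Capitals mark CATGCA (the RY element bound by B3-domain seed regulators), CCAAT, or ACGTG (the core of bZIP sites), on either strand.

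FAD3 (chr2:12785191-12785390, minus strand): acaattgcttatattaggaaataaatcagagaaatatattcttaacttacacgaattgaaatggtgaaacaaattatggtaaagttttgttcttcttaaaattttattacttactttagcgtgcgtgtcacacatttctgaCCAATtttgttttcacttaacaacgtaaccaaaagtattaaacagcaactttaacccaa

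FAD2 (chr3:3863251-3863450, minus strand): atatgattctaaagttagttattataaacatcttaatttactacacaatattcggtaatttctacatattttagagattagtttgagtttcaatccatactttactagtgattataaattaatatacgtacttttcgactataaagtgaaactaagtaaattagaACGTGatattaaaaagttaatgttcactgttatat

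FAE1 (chr4:16494005-16494204, plus strand): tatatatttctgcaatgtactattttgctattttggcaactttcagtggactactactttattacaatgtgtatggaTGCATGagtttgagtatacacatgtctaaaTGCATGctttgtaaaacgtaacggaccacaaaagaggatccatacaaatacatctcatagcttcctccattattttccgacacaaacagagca

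The FAD3 window held 1 CCAAT, beginning at -59 from the gene start. CCAAT was found in 39.6% of 27431 such windows of protein-coding genes, and in those of ROD1, GPAT9 and LPAT2 besides FAD3. FAE1 had 2 matches to CATGCA, at -123 and -93, and LPAT2 had 1, while 6.69% of all windows held this motif. ACGTG, present in 19.8% of all windows, was found in the FAD2 window alone among the 10. Also searched on both strands were CACGTG (the G-box, which contains ACGTG; 5.64% of windows), TAACTG (6.47%), GAANNTTC (7.58%) and the AW-box, written as CNTNG, any 7 bases, then CG (7.47%). None of the 10 windows held any of these 4. The LPCAT1 window overlaps another annotated gene, AT1G12650. A match describes the letters of the window and not binding, and a site farther upstream or in an intron would not be seen. Except for FAE1, the RefSeq gene starts lie upstream of the starts in the deposited gene models. Positions are counted from the RefSeq starts, and the bases between the 2 starts were not searched.

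Across the whole series, steps in the FPKM values gave the read totals used to scale them, 16.4 M (GmPSKγ1) and 15.3 M reads (control). Here M is 10 to the power of 6, and a step may be a read or a fragment. The FPKM program is not known, so these totals need not equal the full library sizes. Markers of the labelled tissue were abundant: 9 storage protein and oil body genes had 3498 to 27054 FPKM in GmPSKγ1 and 3633 to 34812 FPKM in the control. Of these 9, 8 were lower in GmPSKγ1, beside 42.1% of all genes counted, and the summed level of the 9 was 99567 against 124357 FPKM. The albumin gene SESA4, with a ratio of 0.580, and the cruciferin gene CRB, with 0.628, were past 1.5-fold lower (2.68% of all genes counted). The cruciferin gene CRA1 was 1.36-fold higher. Stretches shared among the albumin genes were not examined. Among 9 endosperm markers, IKU2 and MINI3 were at 0 in both libraries and PHE1 was at 0 in GmPSKγ1. Their summed level was 3653 against 4276 FPKM, nearly all of it from the endosperm gene EPR1. The 5 seed coat markers summed to 922 against 952 FPKM, with none at 0 and TT12 lowest. The lower sum came from TT10 (597 against 682 FPKM), while 3 of the 4 markers whose mean reached 1 FPKM were higher in GmPSKγ1, among them BAN (117 FPKM against 91.1) and MYB61 (74.3 FPKM against 50.2). That count was 2 of 4 when rescaled by the median ratio, and also when the scale left out the 50 most abundant genes. In bulk RNA of whole seeds, fewer cells of a type and less RNA per cell cannot be told apart, and the part of storage reserve genes in the results below was not tested.

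**Figure D1:**
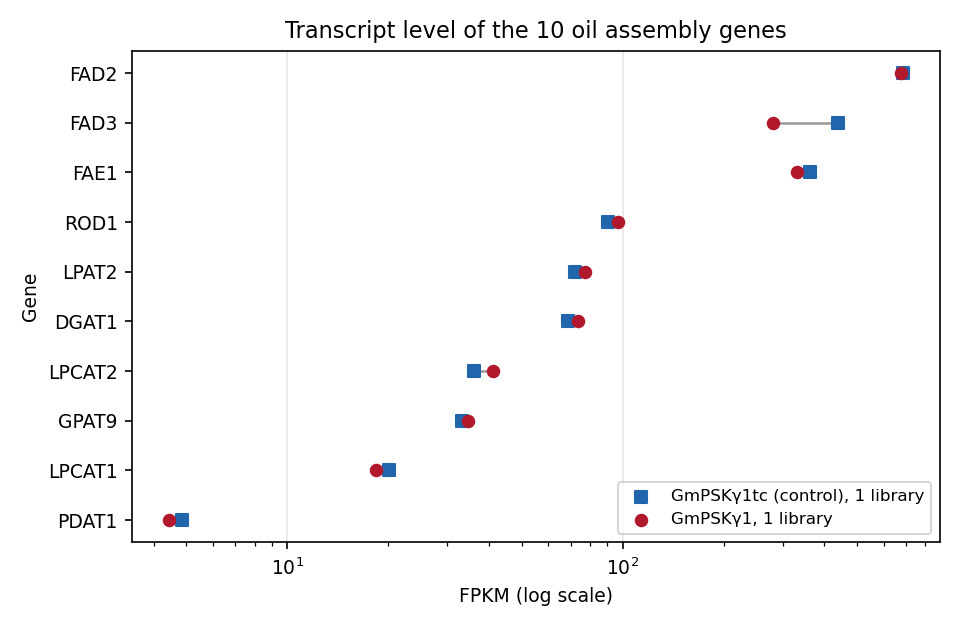
FPKM of each gene (horizontal axis, log scale) in the GmPSKγ1 library (circles) and the GmPSKγ1tc library (squares), 1 library each, with no error bars because there are no replicates. FAD2 leads at 676 and 686 FPKM, PDAT1 is lowest at 4.45 and 4.86 FPKM, and only FAD3 shows a wide gap.

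The 10 genes spanned 152-fold in level within the GmPSKγ1 library and 141-fold within the control. Their levels were first placed in order, since FPKM is per length and can be compared between genes. FAD2, FAD3 and FAE1 together made up 78.8% of the summed FPKM of the 10 genes in GmPSKγ1 and 82.0% in the control. The order was the same in both libraries except for FAD3 and FAE1, which changed places. In the control FAD3 was 1.22-fold above FAE1 (95% counting interval 1.182 to 1.252), and in GmPSKγ1 FAE1 was 1.18-fold above FAD3 (1.14 to 1.22). LPAT2 and DGAT1 were neighbours that did not separate beyond counting error in either library, nor did LPCAT2 and GPAT9 in the control. Counting intervals are exact (Clopper-Pearson) for a ratio of 2 levels, and by a normal approximation on the log scale for a change in such a ratio between the libraries. They cover only the sampling of reads, not any spread among lines or preparations, and reads with no molecular identifiers are not independent molecules.

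The desaturase genes differed from each other. FAD3 (AT2G29980; TAIR10 chromosome 2, 12781591 to 12785053, minus strand) had 281 FPKM in GmPSKγ1 against 440 FPKM for the control. The control level was thus 1.56-fold higher (counting interval 1.52 to 1.61), and FAD3 moved from rank 131 of all gene models in the control to rank 269 in GmPSKγ1. Its log2 ratio was -0.64 as deposited and lay between -0.73 and -0.64 under the 3 rescalings of the libraries. Of the 17816 genes counted, 386, or 2.17%, had a log2 ratio as low or lower. Among the 899 genes whose mean reached 100 FPKM, 17 did, and 2.45% of these abundant genes were at least 1.5-fold lower.

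FAD3 has more than 1 annotated transcript, so its reads are approximate. The 2 RefSeq transcripts, cut to the deposited gene ends, measure 1464 and 1526 bases and give about 6750 or 7036 reads in GmPSKγ1 and 9867 or 10285 in the control. The mix of these 2 transcripts was not tested. No stretch of 32 bases in the exons of FAD3 occurs elsewhere in the reference genome.

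FAD2 (AT3G12120; chromosome 3, 3860285 to 3863050, minus strand) had 676 FPKM in GmPSKγ1 against 686 FPKM for the control. These are nearly the same level, with a ratio of 0.985 and a counting interval of 0.965 to 1.006 that includes 1. FAD2 likewise has 2 transcripts, of 1635 and 1962 bases within the deposited ends, so its reads are approximate. FAD2 supplies the substrate of FAD3, and the balance of the 2 genes does not depend on how the libraries are scaled. FAD3 stood at 0.416 of the FAD2 level in GmPSKγ1 (counting interval 0.405 to 0.428) and at 0.642 in the control (0.626 to 0.658). The balance was thus 1.54-fold lower in GmPSKγ1 (1.49 to 1.60).

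Elongation was represented by FAE1 (AT4G34520; chromosome 4, 16494205 to 16495842, plus strand). FAE1 had 331 FPKM in GmPSKγ1 against 362 FPKM for the control, on 8894 and 9075 reads. GmPSKγ1 was lower by a small amount, a ratio of 0.915 with a counting interval of 0.889 to 0.943. Its log2 ratio of -0.13 became -0.18 after rescaling by the median ratio and -0.21 after rescaling without the 50 most abundant genes. Relative to FAD2, FAE1 stood at 0.490 in GmPSKγ1 and 0.528 in the control, a 1.08-fold lower balance (1.04 to 1.12). FAD3 relative to FAE1 was 1.43-fold lower in GmPSKγ1 (1.37 to 1.49), so FAD3 was lower against both of the other abundant genes.

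**Figure D2:**
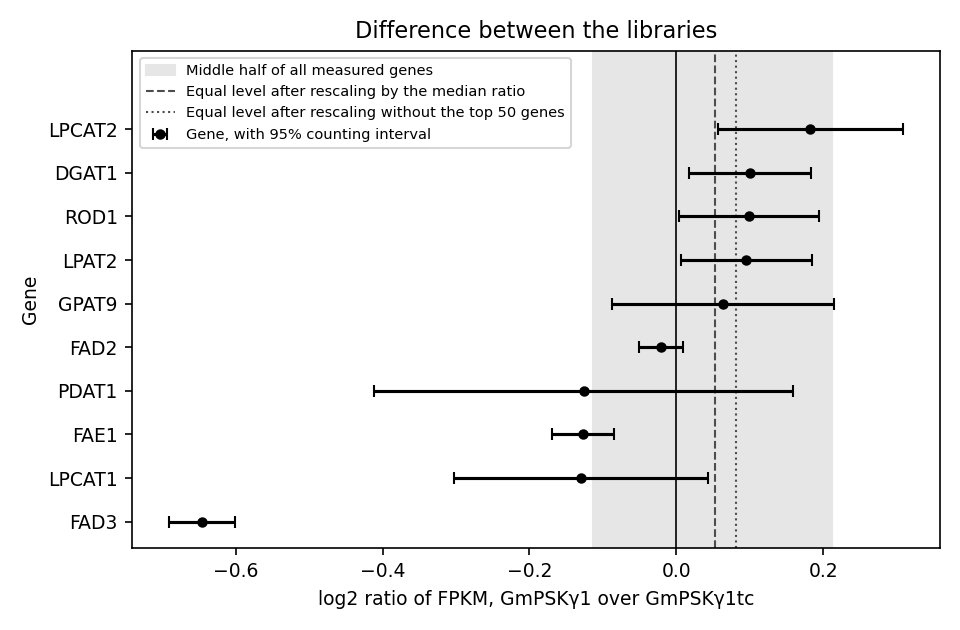
log2 ratio of FPKM, GmPSKγ1 over GmPSKγ1tc, without a pseudocount, for each gene (points), with 95% counting intervals (bars) that do not include the spread between plants. The grey band is the interquartile range of all measured genes (taken on FPKM + 1), and the dashed and dotted lines mark equal levels after 2 rescalings of the libraries; FAD3 at -0.65 is the only gene far outside the band.

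The headgroup exchange gene ROD1 (AT3G15820; chromosome 3, 5351071 to 5353728, plus strand) had 96.8 FPKM in GmPSKγ1 against 90.4 FPKM for the control, on 1916 and 1671 reads. The GmPSKγ1 level was slightly the higher, with a ratio of 1.07 (counting interval 1.003 to 1.144). After rescaling without the 50 most abundant genes the log2 ratio went from 0.10 to 0.02. ROD1 relative to FAD2, the exchange step beside the first desaturation, was 0.143 in GmPSKγ1 and 0.132 in the control, a ratio of 1.09 (1.015 to 1.164).

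The acyl editing pair had log2 ratios of opposite sign. LPCAT1 (AT1G12640; chromosome 1, 4303312 to 4305798, minus strand) had 18.4 FPKM in GmPSKγ1 against 20.2 FPKM for the control, on 542 and 554 reads, and its interval of 0.810 to 1.031 includes a ratio of 1. LPCAT2 (AT1G63050; chromosome 1, 23375884 to 23378291, minus strand) had 41.1 FPKM in GmPSKγ1 against 36.2 FPKM for the control, on 1136 and 935 reads, a ratio of 1.13 (1.04 to 1.24). LPCAT2 was the more abundant of the pair in both libraries. LPCAT1 supplied 31.0% of their summed FPKM in GmPSKγ1 and 35.8% in the control. The ratio of LPCAT1 to LPCAT2 was 0.449 in GmPSKγ1 and 0.557 in the control, 1.24-fold lower in GmPSKγ1 (1.07 to 1.44). Their summed level was 59.5 against 56.3 FPKM, so the shift lay in the balance more than in the sum. Under 0.3% of the 32-base stretches of either gene recur in the genome (0.259% and 0.278%).

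The genes of backbone acylation were close between the libraries. GPAT9 (AT5G60620; chromosome 5, 24367198 to 24369790, plus strand), which encodes the acyltransferase of the first step, had 34.7 FPKM in GmPSKγ1 against 33.2 FPKM for the control. Its interval of 0.941 to 1.16 includes a ratio of 1. The last 141 bases of its model overlap AT5G60630 on the opposite strand, a gene with 151 against 123 FPKM, and reads there cannot be assigned without strand. LPAT2 (AT3G57650; chromosome 3, 21349507 to 21353174, plus strand), which encodes the acyltransferase of the second step, had 77.1 FPKM in GmPSKγ1 against 72.2 FPKM for the control, a ratio of 1.07 (1.005 to 1.136). LPAT2 stood at 2.22 times the GPAT9 level in GmPSKγ1 and 2.17 times in the control, and the interval of the difference (0.907 to 1.15) includes 1.

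Completion of the oil molecule was represented by DGAT1 and PDAT1. DGAT1 (AT2G19450; chromosome 2, 8426206 to 8429736, plus strand) had 73.8 FPKM in GmPSKγ1 against 68.8 FPKM for the control, on 2509 and 2186 reads, a ratio of 1.07 (1.012 to 1.136). PDAT1 (AT5G13640; chromosome 5, 4393062 to 4397541, plus strand) had 4.45 FPKM in GmPSKγ1 against 4.86 FPKM for the control, on 205 and 209 reads, a ratio of 0.916 (0.752 to 1.12). DGAT1 was the more abundant of this pair in both libraries. It stood at 16.6 times PDAT1 in GmPSKγ1 (14.4 to 19.2) and 14.2 times in the control (12.3 to 16.4), and these balances did not separate beyond counting error, with an interval of 0.957 to 1.43 for their ratio.

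**Figure D3:**
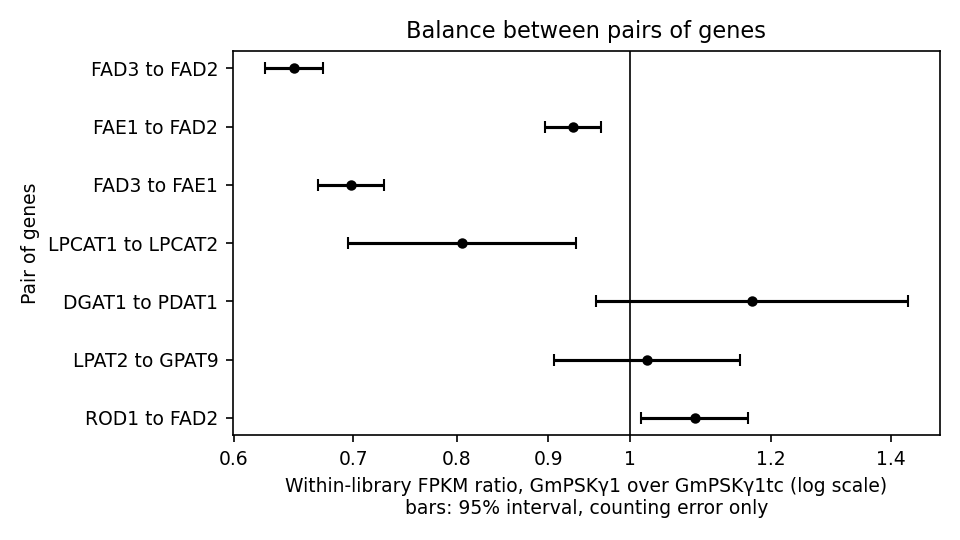
For each pair of genes, the FPKM ratio within the GmPSKγ1 library divided by the same ratio within the control (horizontal axis, log scale), with 95% intervals for counting error. FAD3 to FAD2 at 0.648 and FAD3 to FAE1 at 0.698 are the lowest of the 7 pairs, and the intervals of DGAT1 to PDAT1 and LPAT2 to GPAT9 include 1.

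Counting error is small for genes this abundant, so small differences pass it often. The interval excluded a ratio of 1 on the lower side for 2 of the 10 genes, FAD3 and FAE1, and on the higher side for 4, ROD1, LPCAT2, LPAT2 and DGAT1. Over the 5863 genes with exact reads, no overlapping model and a mean reaching 10 FPKM, the shares were 17.4% lower and 31.5% higher. PDAT1 lies under that level, and FAD2, FAD3 (approximate reads) and GPAT9 (overlapping model) are not among those genes. These 4 higher values depended on the scale. After rescaling by the median ratio the interval lay above 1 for LPCAT2 alone (24.3% of genes) and below 1 for FAD2, FAD3, FAE1 and LPCAT1 (23.5%). Without the 50 most abundant genes in the scale, none lay above 1 (20.6% of genes) and the same 4 lay below (27.3%). FAD3 and FAE1 were below under each of these scales.

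**Figure D4:**
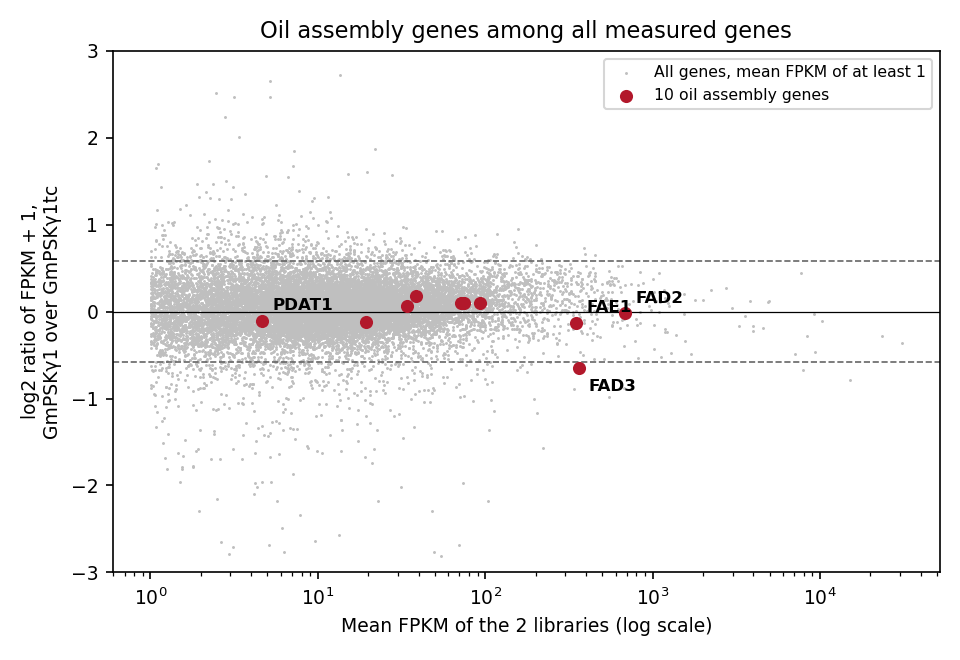
log2 ratio of FPKM + 1 (vertical axis) against mean FPKM of the 2 libraries (horizontal axis, log scale) for all genes whose mean reached 1 FPKM (grey, 12 outside the axis not drawn) and the 10 oil genes (large points; 4 labelled). Dashed lines mark 1.5-fold in either direction; FAD3 is the only large point beyond them, and the other 9 lie between -0.13 and 0.18.

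To place FAD3, the other desaturases and the electron donors of the endoplasmic reticulum were examined. None of these 11 genes passed 1.5-fold, 9 had a positive log2 ratio, and their median was 0.21. The count of positive values was 8 after rescaling by the median ratio and 7 without the 50 most abundant genes. Of all genes counted, 57.9% were positive as deposited, 50.01% after the first rescaling and 45.7% after the second. The median of the list stood above that of all genes by 0.16 as deposited and by 0.16 and 0.15 under these rescalings. Abundant genes as a class also stood higher as deposited, with a median of 0.14 for the 899 genes whose mean reached 100 FPKM. The plastid desaturase genes FAD7 and FAD8 carry out the same desaturation as FAD3 on plastid lipids. FAD7 had 40.7 FPKM in GmPSKγ1 against 34.0 FPKM for the control, and 3.74% of its 32-base stretches recur in the genome. FAD8 had 6.74 and 4.93 FPKM, but its model overlaps another, and 16.4% of its 32-base stretches recur in the genome. FAD3 thus supplied 85.6% of the summed FPKM of these 3 genes in GmPSKγ1 and 91.9% in the control. Relative to FAD7, FAD3 was 1.87-fold lower in GmPSKγ1 (1.71 to 2.05).

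FAD4, a plastid desaturase gene acting on phosphatidylglycerol, had 3.13 against 4.60 FPKM, in a model that overlaps its neighbour. FAB2, the stearoyl-ACP desaturase gene that makes oleate in the plastid, was by mean the most abundant of the list at 297 against 329 FPKM. Cytochrome b5 and its reductase pass electrons to FAD2 and FAD3. The reductase gene CBR1 had 152 FPKM in GmPSKγ1 against 131 FPKM for the control, a ratio of 1.16 (1.10 to 1.22). The cytochrome b5 genes CB5-E (297 against 244 FPKM) and CB5-D (144 against 113 FPKM, model overlapping another) were likewise higher in GmPSKγ1, while CB5-B had 105 against 103 FPKM. FAD3 relative to CBR1 was 1.81-fold lower (1.70 to 1.92). FAD7, CBR1 and the CB5 genes were named after their values were seen.

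The condensing enzyme FAE1 was set beside its family and its partners. FAE1 is KCS18, 1 of 21 genes of 3-ketoacyl-CoA synthases, and it was the most abundant of them in both libraries. Its share of their summed FPKM was 34.9% in GmPSKγ1 and 33.0% in the control. Of the 17 other family members whose mean reached 1 FPKM, 4 were at least 1.5-fold lower in GmPSKγ1 (background 2.68%) and none was at least 1.5-fold higher (3.13%). Their median log2 ratio was -0.14, beside 0.05 for all genes. The 4 lower ones were KCS17, KCS1, KCS16 and KCS20, and they remained past 1.5-fold under each of the 3 rescalings. KCS20 was no longer past it with a pseudocount of 5, and KCS17 falls below a minimum of 5 FPKM. KCS7, at 1.740 against 0.866 FPKM on 43 and 20 reads, passed 1.5-fold on the higher side when both libraries were rescaled to an equal sum or with a pseudocount of 0.1.

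KCS17 had 1.504 FPKM in GmPSKγ1 against 5.67 FPKM for the control, on 40 and 141 reads, so the control was 3.77-fold higher (2.64 to 5.50). KCS17 is the direct neighbour of FAE1, ending 786 bases before it on the same strand of chromosome 4 (16491796 to 16493418), and no 32-base stretch of either gene recurs in the genome. The ratio of FAE1 to KCS17 was 220 in GmPSKγ1 and 63.8 in the control. KCS16 had 33.8 FPKM in GmPSKγ1 against 63.1 FPKM for the control, 1.86-fold higher in the control (1.72 to 2.02). KCS1, whose product is known from wax synthesis, had 7.04 against 14.0 FPKM, on 219 and 408 reads. KCS20, with a known role in root suberin and wax synthesis, had 4.81 against 8.41 FPKM, on 145 and 237 reads. KCS10, which acts in the epidermis, was the most abundant of the other members at 174 against 206 FPKM. The wax gene KCS6, named after its values were seen, had 63.4 against 90.3 FPKM.

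**Figure D5:**
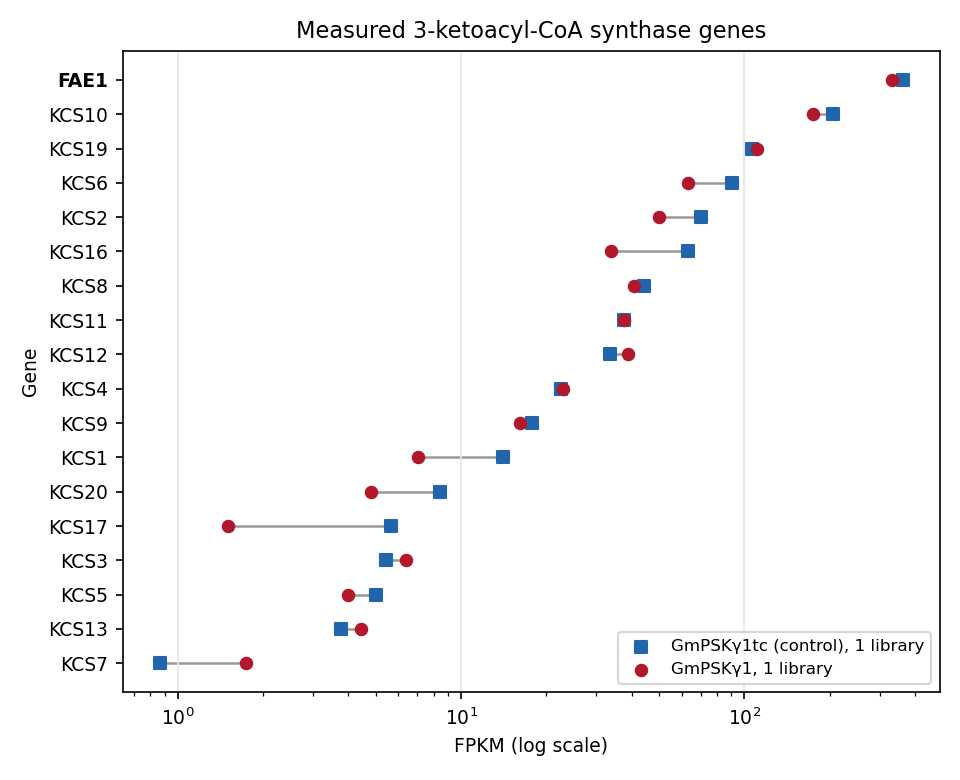
FPKM (horizontal axis, log scale) of FAE1 (bold) and the 17 other 3-ketoacyl-CoA synthase genes whose mean reached 1 FPKM, in GmPSKγ1 (circles) and GmPSKγ1tc (squares), 1 library each. FAE1 is at the top with a narrow gap, 331 against 362 FPKM, while KCS17, KCS1, KCS16 and KCS20 show gaps of over 1.5-fold towards the control.

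The partners of FAE1 in the elongase complex were nearly level. The reductase gene KCR1 had 202 against 200.4 FPKM, the dehydratase gene PAS2 had 105 against 102 FPKM, and the enoyl reductase gene CER10 had 122 against 113 FPKM. None of these 3 passed 1.5-fold, and the sign of their median of 0.04 turned to -0.01 after rescaling by the median ratio.

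Other genes of glycerolipid assembly were close to level as well. Of 18 genes in the list 17 reached a mean of 1 FPKM, none passed 1.5-fold, and their median was -0.01. There were 7 positive and 10 negative values, beside 57.9% positive over all genes counted. Without the 50 most abundant genes in the scale, 4 of the 17 and 45.7% of all genes were positive. DGAT3, a gene of a soluble diacylglycerol acyltransferase, was the most abundant and had the largest log2 ratio of FPKM + 1 in size, -0.48, with 95.5 FPKM in GmPSKγ1 against 134 FPKM for the control. Its model overlaps another and differs from the reference, so this value is uncertain. LPP1, a lipid phosphate phosphatase gene, had 1.76 against 2.75 FPKM, 1.57-fold apart before 1 is added, and passed 1.5-fold with a pseudocount of 0.1. Its counting interval (0.401 to 1.006) includes 1. DGAT2, the gene of an enzyme that catalyses the same step as DGAT1, had 40.0 against 35.6 FPKM in a model overlapping another. DGAT1 accounted for 64.9% of the summed FPKM of DGAT1 and DGAT2 in GmPSKγ1 and 65.9% in the control. DGAT3, with more FPKM than DGAT1 in both libraries, is left out of this sum. PDAT1 accounted for 27.0% and 26.7% of the sum of PDAT1 and PDAT2, so PDAT2 was above PDAT1 in both libraries. DGAT2 and PDAT2 were named after their values were seen.

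Acyl export and activation supply these enzymes with acyl-CoA. None of 13 genes passed 1.5-fold, and the median was -0.003 (-0.08 without the 50 most abundant genes). FATB, the thioesterase gene that releases saturated fatty acids from the plastid, had 55.4 FPKM in GmPSKγ1 against 72.6 FPKM for the control, a ratio of 0.762 (0.717 to 0.811). FATA1, whose product releases oleate, had 106 against 87.6 FPKM, a ratio of 1.205 (1.139 to 1.275), and was named after its values were seen. LACS2, an acyl-CoA synthetase gene of cutin synthesis, had 23.4 against 29.5 FPKM. ACBP6, a cytosolic acyl-CoA-binding protein gene, was the most abundant at 263 against 234 FPKM. In the list of oil droplet assembly and lipases, none of 6 genes passed 1.5-fold and the median was -0.05. SEIPIN1, which helps form oil droplets, had 7.09 against 5.31 FPKM, the lipase gene SDP1 had 9.65 against 12.1 FPKM, and the droplet protein gene LDIP, whose model overlaps another, had 16.8 against 19.6 FPKM.

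Transcription factors known to act on seed oil genes were examined last. The list was not split by whether a factor raises or lowers the level of oil genes. Of 15 such genes 14 reached a mean of 1 FPKM, 11 were positive and 3 negative, and the median was 0.16. The share of positive values over all genes was 57.9%. Without the 50 most abundant genes in the scale, 8 of the 14 and 45.7% of all genes were positive. The median of the list stood above that of all genes by 0.11, as deposited and under this scale. As deposited, the 899 genes whose mean reached 100 FPKM had a median of 0.14, close to that of the list. Only MYB96 passed 1.5-fold, in the lower direction (2.68% of all genes counted). MYB96, which is known to activate wax genes in Arabidopsis and also FAE1 in seeds, had 1.73 FPKM in GmPSKγ1 against 5.67 FPKM for the control, on about 43 and 130 reads. The control was 3.27-fold higher (2.30 to 4.73). FAE1 was 1.09-fold higher in the control, and a link between MYB96 and FAE1 was not tested here.

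The known activators of FAD3 in seeds are the bZIP factor bZIP67 and its partners of the nuclear factor Y type, L1L and NF-YC2. The bZIP67 gene (BZIP67) had 133 FPKM in GmPSKγ1 against 117 FPKM for the control, a ratio of 1.13 (1.069 to 1.197). L1L had 176 against 142 FPKM, with a model that overlaps another, and NF-YC2 had 229 against 245 FPKM. FAD3 relative to the bZIP67 gene was 1.77-fold lower in GmPSKγ1 (1.66 to 1.89). FUS3, a master regulator of seed maturation and by mean the most abundant of the list, had 249 against 235 FPKM, and LEC2, another, had 4.68 against 3.37 FPKM. The genes bZIP67, L1L and NF-YC2 were named after their values were seen, and the cause of the FAD3 difference was not tested.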

How the data were processed

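Total seed RNA was cleaned up with DNase I before standard Illumina library preparation, per the labels' protocols. The authors deposited FPKM values, 1 per gene model. Bowtie 0.12.2 and the build TAIR10 were used, per the submitters' processing notes; the sources used here do not give the FPKM program, the treatment of multiply mapped reads or any use of strand.

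The members and lists were chosen with earlier results of these data known. The comparison was the log2 ratio of FPKM + 1, for genes whose mean reached 1 FPKM, and "past the threshold" means 1.5-fold. Exon lengths of RefSeq models (TAIR10.1), cut to the deposited gene ends, turned FPKM into reads. Below 200 reads, 99.5% of single-exon genes came out whole within 0.01 in each library. Of the 10 genes, 8 had whole reads in both; FAD2 and FAD3 were estimated from their shortest transcript. Intervals are at 95%: exact for a ratio of 2 levels, and by a normal approximation on the log scale for a ratio of 2 balances. The interval code was tested on simulated counts. Named from each list were genes past the threshold, the 2 largest absolute log2 ratios and the most abundant gene. Endosperm markers at 0 allow up to 3 reads. The storage list was OLEO1, OLEO2, SESA1 to SESA4, CRA1, CRB and CRC. Alternatives were pseudocounts of 0.1 and 5, other minimums and thresholds, and 3 rescalings. Python 3.11.15, pandas 2.3.3 and scipy 1.17.1 were used.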

Additional observations from a re-analysis of the deposited data

How the results depend on the processing

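The members' calls held under every alternative run except the 2-fold threshold, under which 0 members were lower. Rescaling by the median ratio shifts all log2 ratios by -0.052, and rescaling without the 50 most abundant genes by -0.082; these gave -0.074 and -0.10 for FAD2, -0.70 and -0.73 for FAD3, and -0.18 and -0.21 for FAE1. GPAT9 turned from 0.06 to -0.02 without the 50 most abundant genes. Over all genes, 557 were at least 1.5-fold higher and 478 lower. Those higher were 945 with a pseudocount of 0.1, 146 with a pseudocount of 5, 362 without the 50 most abundant genes and 322 with a minimum of 5 FPKM. Those lower were 697 and 206 with these pseudocounts, 614 without the 50 most abundant genes and 281 with a minimum of 5 FPKM. By the median ratio, 430 were higher and 563 lower. The excess of higher genes thus reversed under these 2 rescalings, and also with a pseudocount of 5 and no rescaling. It held when both libraries were rescaled to an equal sum, at 671 higher and 535 lower. MYB96 falls below the minimum of 5 FPKM. Apart from the number of genes counted and the weight of the added 1, the causes of these shifts were not tested. No paired analysis was possible because each group has 1 library, and no replicate could be left out. Among the 10 genes, depth limits PDAT1 most, at 205 and 209 reads.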
